A study of Mus musculus with 10 samples.

Results

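The 9 genes described here are Saa1, Saa2 and Saa3 (serum amyloid A proteins), Duox2 and Duoxa2 (a dual oxidase and its maturation factor), Nos2, Lcn2, Il17a and Il22, named together for the epithelial response to adherent microbes and IL-22. They were taken by symbol, and all 9 were found among the 35275 gene IDs that were counted. RNA-seq was carried out on segments of proximal intestine from 5 WT and 5 KO mice, 1 library per mouse, and the comparison addresses the effect of losing Zip14 (Slc39a14), a zinc transporter. The WT mice were wild type, the KO mice are labelled as a Zip14 knockout, and all 10 mice were between 8 and 10 weeks old by their labels and ate the same commercial diet; the labels give no treatment. The study's methods describe the sequenced KO mice as whole-body knockouts from matings of heterozygous mice, with WT mice of the same strain as controls, while the series title speaks of an enterocyte-specific deletion and the labels give only a knockout. Male and female mice were used, without a sex per library. The 9 genes were chosen with their KO and WT values known, so their fold changes, and whether the fit across all genes put them under its threshold, are a description and no independent test.

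Serum amyloid A proteins are small secreted apolipoproteins of the acute phase that bind lipids and retinol, and in the small intestine epithelial cells make them when microbes attach to the surface. DUOX2 is the hydrogen peroxide-producing oxidase of the apical epithelial membrane, and it leaves the endoplasmic reticulum only together with DUOXA2. Type 3 lymphocytes in the lamina propria release IL-22 and IL-17A, which act on receptors of epithelial cells and raise epithelial antimicrobial genes, partly through STAT3.

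The libraries held between 16729787 and 20819678 counts. Slc39a14 had 260.4 ± 62.5 CPM (counts scaled to library size) in WT and 102.4 ± 32.9 CPM in KO libraries (SD, n = 5 per group), and the log2 fold change was -1.35 (SE 0.22, adjusted p = 0.00184 by edgeR's quasi-likelihood test). Transcript of the gene thus remained in every KO library, between 78.5 and 160.1 CPM, the highest in KO replicate 1, against 190.8 to 356.8 CPM in WT libraries. Markers of the gut segment went against the tissue label in KO libraries: the summed level of 6 ileal markers was 219.7 to 301.9 CPM in WT and 3347 to 10609 CPM in KO, and that of 7 proximal markers was 8880 to 16141 CPM in WT and 94.96 to 1398 CPM in KO. Genotype and gut segment therefore cannot be told apart for the Slc39a14 values above or for any value below.

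Saa1 was close to absent in WT libraries and reached high levels in most KO libraries. It had 12, 4, 1, 2 and 2 counts in WT replicates 1 to 5, and 64, 1730, 516, 228 and 5318 counts in KO replicates 1 to 5. In CPM after TMM normalization, the KO levels were 3.61, 90.7, 27.8, 10.9 and 279.0, against 0.0583 to 0.623 in WT. Every KO library was above every WT library, and the KO libraries also differed among themselves, the highest 77.4 times the lowest. The log2 fold change was 8.40 (SE 1.38), and it was 7.09 without KO replicate 5, 9.22 without WT replicate 1 and 8.71 without KO replicate 1. In bulk tissue, a larger share of cells that make a transcript and more of it per cell cannot be told apart.

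Saa3, the family member that macrophages and adipocytes also make, followed the same order of KO libraries at a lower level. It had 0.727, 0.255, 0.350, 0.550 and 0.672 CPM in WT replicates 1 to 5, and 0.620, 5.87, 1.57, 1.24 and 11.3 CPM in KO replicates 1 to 5. KO replicate 1 lay within the WT range, and the other 4 KO libraries were above it. The log2 fold change was 2.98 (SE 0.76), and 2.16 without KO replicate 5. In both Saa1 and Saa3, KO replicate 5 was highest, then replicates 2, 3, 4 and 1. The balance of both genes differed between the groups: counts of Saa3 were 100% to 600% of those of Saa1 in WT libraries, where Saa1 had at most 12 counts, and 4.04% to 17.2% in KO libraries.

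Saa2, which like Saa1 encodes an acute phase form, had 2 counts in WT replicate 4 and 0 in the other WT libraries, and 1 and 5 counts in KO replicates 3 and 5 and 0 in the other KO libraries. A count of 0 allows up to 3 counts, which covers counting error only. Saa4, the constitutive family member, had 0 counts in all 10 libraries. Saa1 (ENSMUSG00000074115) occupies chr7:46740497-46742980 (minus strand), Saa2 (ENSMUSG00000057465) chr7:46751790-46754313 (plus strand) and Saa3 (ENSMUSG00000040026) chr7:46711998-46715700 (minus strand) (GENCODE M21, GRCm38). The 609-base Saa1 and 606-base Saa2 transcripts are 93.9% identical, and Saa1 and Saa3 62.2%. Of all 50-base stretches of the Saa1 transcript, 14.8% also occur in Saa2 or Saa3, and no 100-base stretch does, so a part of the reads of Saa1 and Saa2 could have been counted for either or for neither. The bases before the starts of the 3 genes are shown because Saa1 and Saa2 begin so alike and were counted so differently. They are from RefSeq (GRCm38.p6), 5′ to 3′ on the strand of the gene, with the C/EBP motif in capitals: chr7:46742981-46743230 on the minus strand for Saa1, chr7:46751583-46751789 on the plus strand for Saa2 and chr7:46715701-46715926 on the minus strand for Saa3.
Saa1: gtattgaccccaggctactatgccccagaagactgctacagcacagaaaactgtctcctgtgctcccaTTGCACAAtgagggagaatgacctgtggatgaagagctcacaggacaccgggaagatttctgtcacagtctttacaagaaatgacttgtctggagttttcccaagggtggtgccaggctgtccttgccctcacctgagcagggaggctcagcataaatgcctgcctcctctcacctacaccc
Saa2: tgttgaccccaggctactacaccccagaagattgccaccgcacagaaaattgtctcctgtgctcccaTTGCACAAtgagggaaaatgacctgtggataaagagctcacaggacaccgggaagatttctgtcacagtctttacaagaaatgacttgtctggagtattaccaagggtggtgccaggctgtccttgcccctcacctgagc
Saa3: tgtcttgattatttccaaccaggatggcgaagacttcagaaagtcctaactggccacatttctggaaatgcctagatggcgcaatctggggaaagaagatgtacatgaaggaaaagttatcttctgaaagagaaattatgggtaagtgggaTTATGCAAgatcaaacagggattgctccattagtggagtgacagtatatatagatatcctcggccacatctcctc

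In windows of 300 bases, from 250 before to 50 after the RefSeq start, Saa1 and Saa2 matched at 287 of 301 aligned positions (95.35%), and Saa1 and Saa3 at 165 of 324 (50.93%). C/EBP factors and NF-kB are known activators of acute phase genes in liver. Searched on both strands as TTGCNNAA, the C/EBP motif lay 182 bases before the start of Saa1, 183 before that of Saa2, 99 before that of Saa3 and 216 before that of Lcn2. It was thus in 4 of the 8 windows found for the 9 genes (Nos2 had no entry), against 10.8% of 32851 mouse promoter windows. Saa1 and Saa2, whose windows are near copies, share the same match TTGCACAA, so the 4 are not independent. The STAT motif TTCNNNGAA was in 0 of the 8 and in 8.30% of all windows, and the NF-kB consensus in 0 of the 8 and in 8.46%. The RefSeq starts of Duox2 and Lcn2 lie 222 and 513 bases inside their GENCODE genes, so both windows cover bases of the gene itself. Those of Saa2 and Saa3 lie 43 and 24 bases inside. The letters shown above end before the GENCODE starts, while the distances count from the RefSeq starts. A match describes these letters only.

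**Figure D1:**
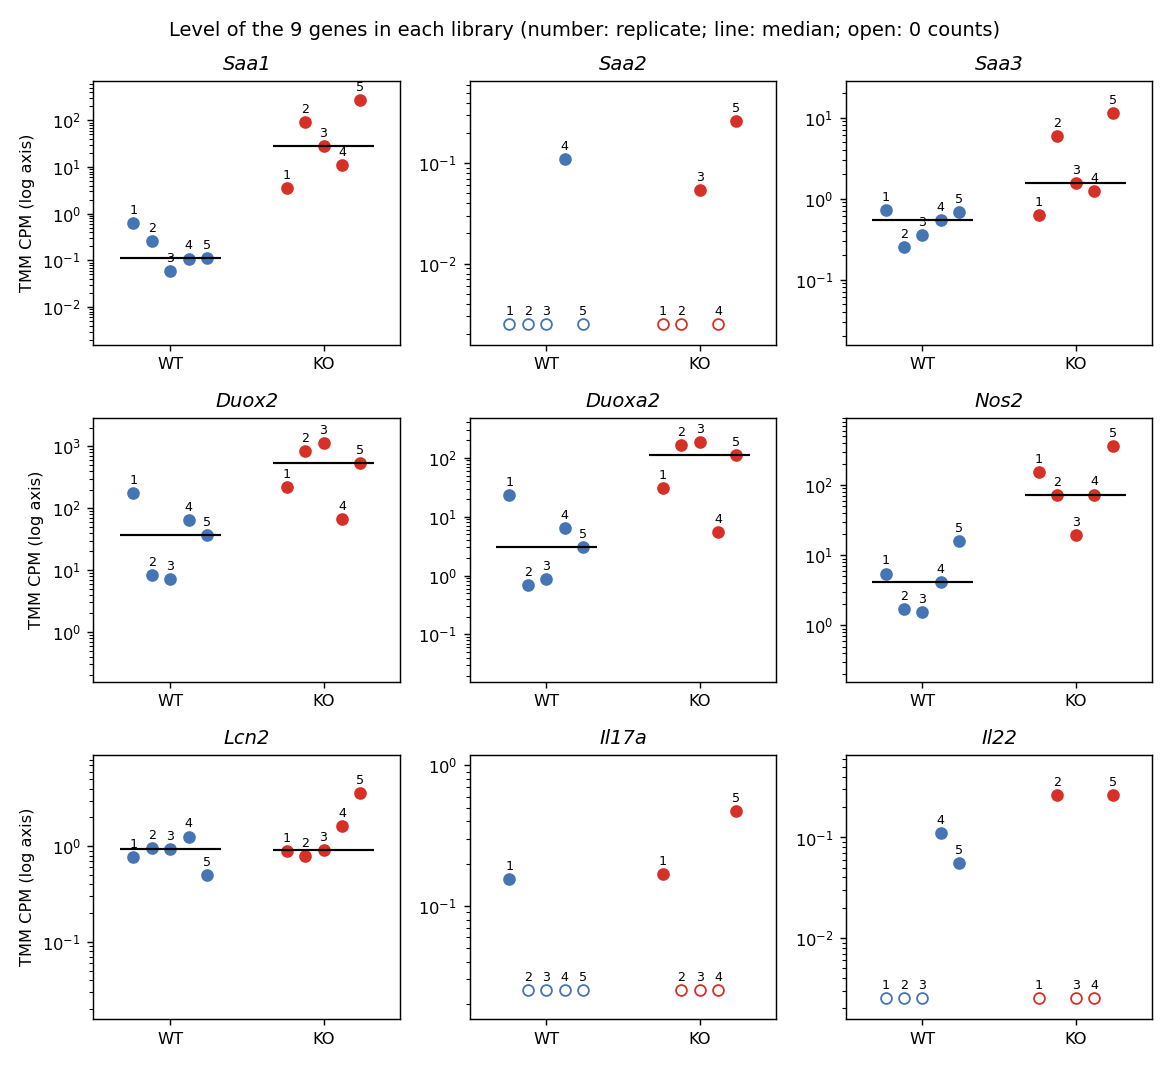
Level of each of the 9 genes in CPM after TMM normalization on log axes, by library, with WT in blue and KO in red. Numbers are replicates, lines are group medians (drawn where at least 3 libraries had counts) and open circles at the bottom are libraries with 0 counts. The WT and KO points are apart for Saa1 and Nos2 and overlap for the other 7 genes.

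Duox2 and Duoxa2 had the same order of libraries in KO mice and, but for the pair of lowest libraries, in WT mice. Duox2 had 176.0, 8.23, 7.06, 64.2 and 36.8 CPM in WT replicates 1 to 5 and 222.3, 849.9, 1138, 67.1 and 534.3 CPM in KO replicates 1 to 5. Duoxa2 had 23.4, 0.702, 0.875, 6.43 and 3.03 CPM in the same WT libraries and 31.1, 163.4, 188.4, 5.43 and 111.2 CPM in the same KO libraries. For both genes KO replicates 1, 2, 3 and 5 were above all WT libraries, and KO replicate 4 lay within the WT range, below WT replicate 1. The WT libraries alone spanned 24.9-fold for Duox2 and 33.4-fold for Duoxa2, and the KO libraries 16.97-fold and 34.7-fold. The log2 fold change of Duox2 was 3.26 (SE 0.97). It was 4.27 without WT replicate 1, and it lost its adjusted p under 0.05 without WT replicate 2 (2.98), 3 (2.97), 4 (3.28) or 5 (3.13) and without KO replicate 3 (2.82). The log2 fold change of Duoxa2 was 3.84 (SE 1.06), with 3.47 without KO replicate 3 and 5.16 without WT replicate 1.

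Both genes share one region of chromosome 2. Duox2 (ENSMUSG00000068452) occupies chr2:122279247-122298449 (minus strand) and Duoxa2 (ENSMUSG00000027225) chr2:122298900-122302885 (plus strand), with starts 451 bases apart and facing away from each other. The bases before Duoxa2 lie between both starts and are shown for that reason (RefSeq, GRCm38.p6, chr2:122298650-122298899, plus strand, 5′ to 3′), with the only motif match, the TATA box TATAAA, in capitals.
Duoxa2: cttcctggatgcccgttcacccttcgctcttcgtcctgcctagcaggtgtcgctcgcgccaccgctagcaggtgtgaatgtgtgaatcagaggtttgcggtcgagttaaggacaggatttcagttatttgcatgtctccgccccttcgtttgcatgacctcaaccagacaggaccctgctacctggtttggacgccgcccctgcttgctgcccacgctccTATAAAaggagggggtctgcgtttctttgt

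That TATA box begins 30 bases before the start of Duoxa2. The same 6 letters, searched on both strands, were in 3 of the 8 windows, those of Duoxa2, Il17a and Il22, and in 13.6% of all windows. Counts of Duoxa2 were 8.22% to 13.3% of those of Duox2 in WT libraries (median 10.0%) and 8.10% to 20.8% in KO libraries (median 16.6%). The share was lowest in KO replicate 4, the KO library with the least of both. Per length, with 5744 bases for Duox2 and 1592 for Duoxa2, the median level was 6.41 and 1.90 CPM per kilobase in WT and 93.0 and 69.9 CPM per kilobase in KO libraries. At 50 bases, 7.29% of the stretches of the Duox2 transcript also occur in Duox1, the neighbouring paralog. Duoxa1, the maturation factor of DUOX1, overlaps Duoxa2 on the other strand, and the sources used here do not give how strand was handled. Its counts were 0% to 9.26% of those of Duoxa2 in WT and 1.98% to 8.77% in KO libraries.

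**Figure D2:**
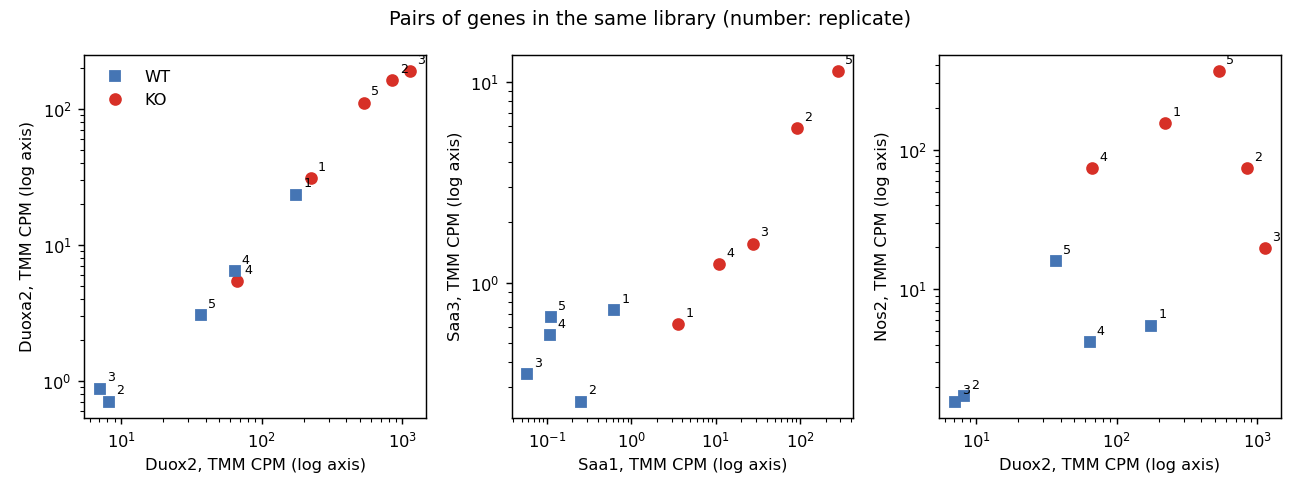
Levels of 2 genes in the same library, in CPM after TMM normalization on log axes, with WT as blue squares, KO as red circles and the replicate number beside each. Duoxa2 climbs with Duox2 through both groups, Saa3 climbs with Saa1 in the KO libraries, and KO replicate 3 has the most Duox2 but the least Nos2 of the KO libraries.

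Nos2, the inducible nitric oxide synthase of epithelium and macrophages, was the other gene without overlap. It had 5.50, 1.72, 1.57, 4.18 and 16.0 CPM in WT replicates 1 to 5 and 154.2, 73.4, 19.8, 73.8 and 362.5 CPM in KO replicates 1 to 5. The nearest libraries across the groups were WT replicate 5 and KO replicate 3, at 16.0 and 19.8 CPM. The log2 fold change was 4.55 (SE 0.86), with 3.79 without KO replicate 5 and 5.38 without WT replicate 5. The order of the KO libraries was another than for Duox2: KO replicate 5 was highest, then 1, 4, 2 and 3. Counts of Nos2 were accordingly between 1.74% and 110% of those of Duox2 in KO libraries, lowest in replicate 3 and highest in replicate 4. The gene (ENSMUSG00000020826) occupies chr11:78920787-78960254 (plus strand).

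Lcn2 encodes lipocalin-2, which binds bacterial siderophores and is widely used as a marker of gut inflammation. It had 0.778, 0.957, 0.933, 1.26 and 0.504 CPM in WT replicates 1 to 5 and 0.901, 0.787, 0.918, 1.62 and 3.57 CPM in KO replicates 1 to 5. KO replicates 4 and 5 were above the WT libraries and the other 3 lay among them. The log2 fold change was 0.81 (SE 0.45), and 0.26 without KO replicate 5. Lcn2 (ENSMUSG00000026822) occupies chr2:32384633-32388252 (minus strand).

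The cytokines were at the limit of the depth. Il17a (ENSMUSG00000025929, chr1:20730905-20734496, plus strand) had 3 counts in WT replicate 1, 3 in KO replicate 1, 9 in KO replicate 5 and 0 in the other 7 libraries. Il22 (ENSMUSG00000074695, chr10:118204942-118210047, plus strand) had 2 and 1 counts in WT replicates 4 and 5, 5 counts each in KO replicates 2 and 5 and 0 in the other 6 libraries. Both groups therefore overlapped, and a difference in either cytokine was not detectable at this depth. Of the 50-base stretches of Il22, 41.0% also occur in Iltifb, a near-identical copy that had 1 count in total. KO replicate 5 held the most counts, alone or with another, of Saa1, Saa2, Saa3, Nos2, Lcn2, Il17a and Il22.

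Of the 9 genes, 6 passed the filter on low counts and 3 (Saa2, Il17a and Il22) did not. Of these 6, Saa1, Saa3, Duox2, Duoxa2 and Nos2 had an adjusted p under 0.05 with KO higher, and Lcn2 did not. In the same fit 29.9% of 15610 genes passed, 16.0% with KO higher, and nothing is read from the count of 5, since the genes were chosen on this contrast. Saa1 and Nos2 were the 2 genes of the 6 with all KO libraries above all WT libraries, which held for 10.2% of the genes tested. Without KO replicate 1, the KO library with the most Slc39a14, the same 5 genes passed.

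Other scalings of the libraries shifted these genes together with all others. Of the 4660 genes that passed, 53.5% were higher in KO, and 69.4% of those that passed were with library size as the only scaling and 13.8% with scaling to 8 epithelial markers, with the median log2 fold change of all genes at 0.03, 0.15 and -0.29. The values under epithelial scaling were 7.93 for Saa1, 2.57 for Saa3, 2.99 for Duox2, 3.55 for Duoxa2, 4.15 for Nos2 and 0.43 for Lcn2.

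Compared per length among each other, the genes stood in another order in each group. In WT libraries the median level was highest for Duox2, at 6.41 CPM per kilobase, followed by Duoxa2 at 1.90, Lcn2 at 1.02, Nos2 at 0.996, Saa3 at 0.990 and Saa1 at 0.184. Each of these genes overlapped its neighbour in that order over the WT libraries, with Duox2 itself between 1.23 and 30.6 CPM per kilobase. In KO libraries the order was Duox2 at 93.0, Duoxa2 at 69.9, Saa1 at 45.7, Nos2 at 17.6, Saa3 at 2.82 and Lcn2 at 1.003 CPM per kilobase. Neighbours overlapped over the KO libraries as well, and the highest single level of all was that of Saa1 in KO replicate 5, 458.1 CPM per kilobase. Saa2, Il17a and Il22 had medians of 0 in both groups.

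Genes around the 9 were described from 4 lists of 66 genes, of which 46 were in the fit: 17 rose in KO libraries, 5 fell and the rest did not pass, and the median log2 fold change was 0.55 against 0.03 over all genes tested. With scaling to epithelial markers 14 of them passed as higher and 12 as lower. The lists too were chosen with earlier results of these data known, so their counts and medians are a description and no independent evidence. The adjusted p-values below are from edgeR's quasi-likelihood test over all 15610 genes.

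Of 12 genes of the IL-22 and IL-17 axis, 2 rose and 4 fell, with a median log2 fold change of -0.11. Il17re, the epithelial receptor chain for IL-17C, rose by 1.93 on the log2 scale (SE 0.30, adjusted p = 0.00146). Il18, an epithelial cytokine, fell by 2.35 on the log2 scale (SE 0.18, adjusted p = 6.66e-05), Il10rb, the shared chain of the IL-22 receptor, fell by 0.47 (SE 0.09, adjusted p = 0.00402), and Socs3, the STAT3-induced feedback inhibitor, fell by 1.01 (SE 0.24, adjusted p = 0.00992). Ahr also fell, with a log2 fold change of -0.85 (SE 0.26, adjusted p = 0.0326). It passed in 6 of 10 fits when each library was left out in turn. Stat3, the most abundant of the list in WT libraries, did not pass, with a log2 fold change of -0.13 (SE 0.11, adjusted p = 0.391). Il17rc, the most abundant of the list in KO libraries, rose by 0.75 on the log2 scale (SE 0.19, adjusted p = 0.0152). The other 6 genes were too low for the fit, and in an exact permutation test p was 0.0873 or above for each of them. Il17f had 1 count over the WT and 9 over the KO libraries, Il6 2 and 14, Il17c 10 and 22, Il12b 9 and 22, Il23a 20 and 15, and Il23r 25 and 32.

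Of 15 epithelial targets of IL-22, IL-17 and microbes, 3 rose and 1 fell, with a median log2 fold change of 0.42. Fut2, the fucosyltransferase that IL-22 raises in ileal epithelium, had 0.525 to 2.08 CPM in WT libraries and 4.11, 70.0, 72.4, 4.57 and 30.4 CPM in KO replicates 1 to 5. Its highest KO libraries were replicates 3, 2 and 5, as for Duox2, and its log2 fold change was 4.82 (SE 0.87, adjusted p = 0.0031). Cldn2, a pore-forming claudin, rose by 1.78 on the log2 scale (SE 0.22, adjusted p = 5.00e-04). Steap4, a metalloreductase, rose by 2.47 (SE 0.60, adjusted p = 0.012), while Reg3a, an antimicrobial lectin, fell by 1.89 (SE 0.42, adjusted p = 0.00842). Cldn2 was highest in KO replicate 5, at 309.6 CPM. Steap4 was highest in KO replicate 4, at 22.5 CPM, the KO library lowest in Duox2. That library was also the highest in adipocyte markers, and their part in Steap4 was not tested. Pigr, the receptor that carries IgA across the epithelium and the most abundant of the list in WT libraries, did not pass, with a log2 fold change of -0.90 (SE 0.39, adjusted p = 0.102). Reg3b, an antimicrobial lectin and the most abundant of the list in KO libraries, did not pass either, with a log2 fold change of 0.91 (SE 0.65, adjusted p = 0.305). S100a8 and S100a9 encode calprotectin, and S100a8 had 6 counts in each group and S100a9 13 in WT and 11 in KO.

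Of 13 genes of the NADPH oxidase and nitric oxide synthase family, 7 rose and 0 fell, with a median log2 fold change of 1.03. Nox4, among the 7, rose by 1.43 on the log2 scale (SE 0.44, adjusted p = 0.0331). It passed in 3 of 10 fits when each library was left out in turn. Duoxa1 rose by 3.23 on the log2 scale (SE 0.77, adjusted p = 0.0109; 3.90 without WT replicate 1 and 2.72 without KO replicate 3), with a part of its reads possibly from Duoxa2 as said above. Nos1, the neuronal nitric oxide synthase, rose by 1.53 on the log2 scale (SE 0.33, adjusted p = 0.00674), and Cyba, the membrane subunit of several NADPH oxidases, by 1.03 (SE 0.23, adjusted p = 0.00781). Gpx2, the epithelial glutathione peroxidase that removes hydrogen peroxide, was the most abundant of the list. It rose by 1.201 on the log2 scale (SE 0.31, adjusted p = 0.0158), with KO replicate 3 highest as for Duox2. Other genes of the list had another order. Among KO libraries Cyba was lowest in replicate 3, at 43.3 CPM, and Nos1 was highest in replicate 4, at 17.1 CPM.

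Of 6 acute phase genes in the fit, 5 rose and 0 fell, with a median log2 fold change of 1.55. Lrg1 rose by 1.63 on the log2 scale (SE 0.36, adjusted p = 0.00801) and complement C3, the most abundant of the list, by 1.47 (SE 0.42, adjusted p = 0.0233), but C3 did not pass without WT replicate 3 (1.32) or KO replicate 2 (1.23). Orm1 rose by 2.88 on the log2 scale (SE 0.88, adjusted p = 0.0317) and Lbp by 0.86 (SE 0.26, adjusted p = 0.0307), and when each library was left out in turn, Orm1 passed in 5 of 10 and Lbp in 4 of 10 fits. With scaling to epithelial markers Lbp was at 0.57 on the log2 scale (adjusted p = 0.149). Hp, the fifth, with 2.54 (SE 0.86, adjusted p = 0.0461) on the log2 scale, passed in 3 of 10, between 1.58 and 3.27. Without KO replicate 4, which had the highest adipocyte markers, Orm1 was at 1.86.

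Among 20 list genes below the filter, 4 had an unadjusted p under 0.05 by an exact permutation test over 252 splits, whose lowest possible p is 0.00794, and the adjusted p was 0.0794 for each. Retnlb, a goblet cell protein that kills bacteria, had 2, 4, 0, 1 and 0 counts in WT replicates 1 to 5 and 30, 2037, 3405, 9 and 49 counts in KO replicates 1 to 5. Its highest KO libraries were replicates 3 and 2, as for Duox2 and Duoxa2. Nox1, an epithelial NADPH oxidase, had 12 counts over the WT and 231 over the KO libraries. Crp and Cxcl2 were lower, with 78 and 43 counts over the WT and 2 and 11 over the KO libraries.

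**Figure D3:**
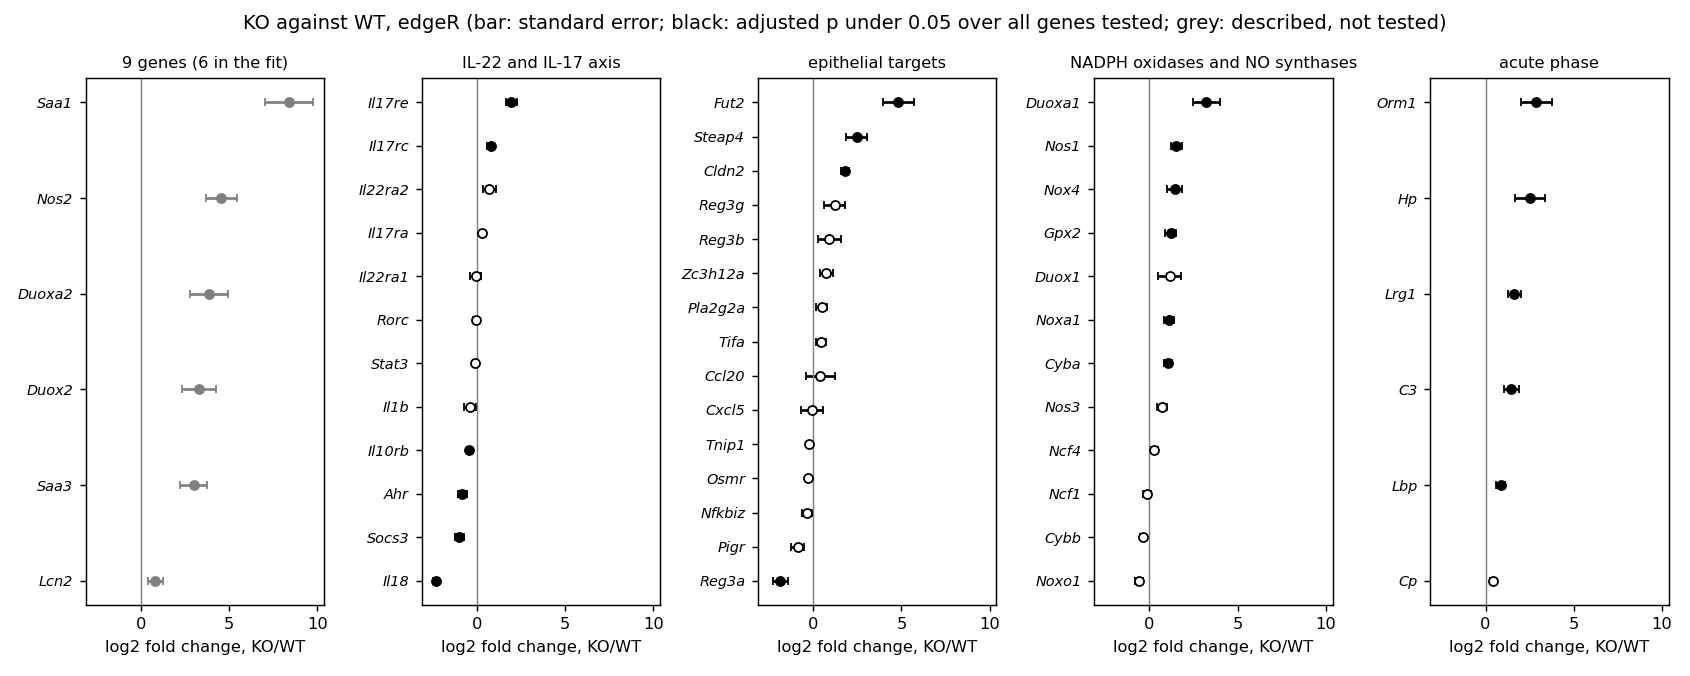
Log2 fold change of KO against WT with its standard error, for the 6 of the 9 genes in the fit (grey, described without a test) and for the genes of the 4 lists in the fit. Black points had an adjusted p under 0.05 over all genes tested and open points did not. Saa1 lies farthest from 0, at 8.40, and the black points among the oxidase and synthase genes are all on the right.

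The genes whose profile over the 10 libraries was most like that of Saa1 were Slc25a48, Tmigd1 and 1810065E05Rik, with a root mean square difference of 1.22, 1.52 and 1.55 in centred log2 CPM. For Saa1 against Duoxa2, the nearest of the other 8 genes, it was 2.11, and against Saa3 it was 2.43. For Duox2 it was 0.45 against Duoxa2, and outside the 9 genes 0.68 against Gsdmc3, 0.76 against Duoxa1 and 0.95 against Gsdmcl2. Gsdmc3 had 1.34 to 22.0 CPM in WT and 25.3 to 323.7 CPM in KO libraries, and reads of these gasdermin C genes can be shared with their near-identical copies. Since likeness was computed over both groups, a gene that differs between them as much as Saa1 or Duox2 does comes out as near.

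Several cell type markers moved with the groups, and their part in the values above was not tested. The 10 type 3 lymphocyte markers found summed to 83.2 to 109.8 CPM in WT and 82.8 to 94.7 CPM in KO libraries, and 0 of 9 in the fit passed. Neutrophil markers summed to 6.18 to 8.57 CPM in WT and 2.86 to 9.18 CPM in KO, with 0 of 2 in the fit passing; Ly6g had 0 counts over the WT and 16 over the KO libraries, Elane 0 and 7, Csf3r 289 and 214, and Cxcr2 50 and 25. Macrophage markers overlapped, at 231.4 to 317.8 CPM and 170.4 to 302.2 CPM, with 1 of 8 higher and 2 lower. Hepatocyte markers summed to 10.0 to 23.7 CPM in WT and 26.5 to 93.7 CPM in KO, with 2 of 4 in the fit higher. Over the WT and the KO libraries Tat had 7 and 1044 counts, Cyp2e1 309 and 1525, Serpina1a 16 and 78, Alb 66 and 53 and Fgg 0 and 1. Adipocyte markers, of which 5 of 6 were higher, summed to 21.4 to 180.5 CPM in WT and 78.4 to 1063 CPM in KO. All 8 smooth muscle markers were higher, with sums of 1064 to 1888 CPM in WT and 2829 to 8458 CPM in KO. Of the epithelial markers 5 of 8 were higher, with sums of 11492 to 13378 CPM and 13309.7 to 19388 CPM, and all 6 ileal markers were higher and 4 of 7 proximal markers lower. B cell and follicle markers were high in WT replicate 5, at 102.7 CPM, and in KO replicates 2, 3 and 4, at 177.0 to 248.7 CPM, and low in KO replicates 1 and 5, at 13.2 and 24.4 CPM. KO replicates 3 and 2, the highest in Duox2 and Duoxa2, were thus high in follicle markers, as was WT replicate 5, the highest WT library in Nos2, while KO replicate 4 was the highest in follicle, ileal, adipocyte and smooth muscle markers and the lowest KO library in Duox2 and Duoxa2, and KO replicate 5, the highest in Saa1 and Nos2, was low in follicle markers.

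**Figure D4:**
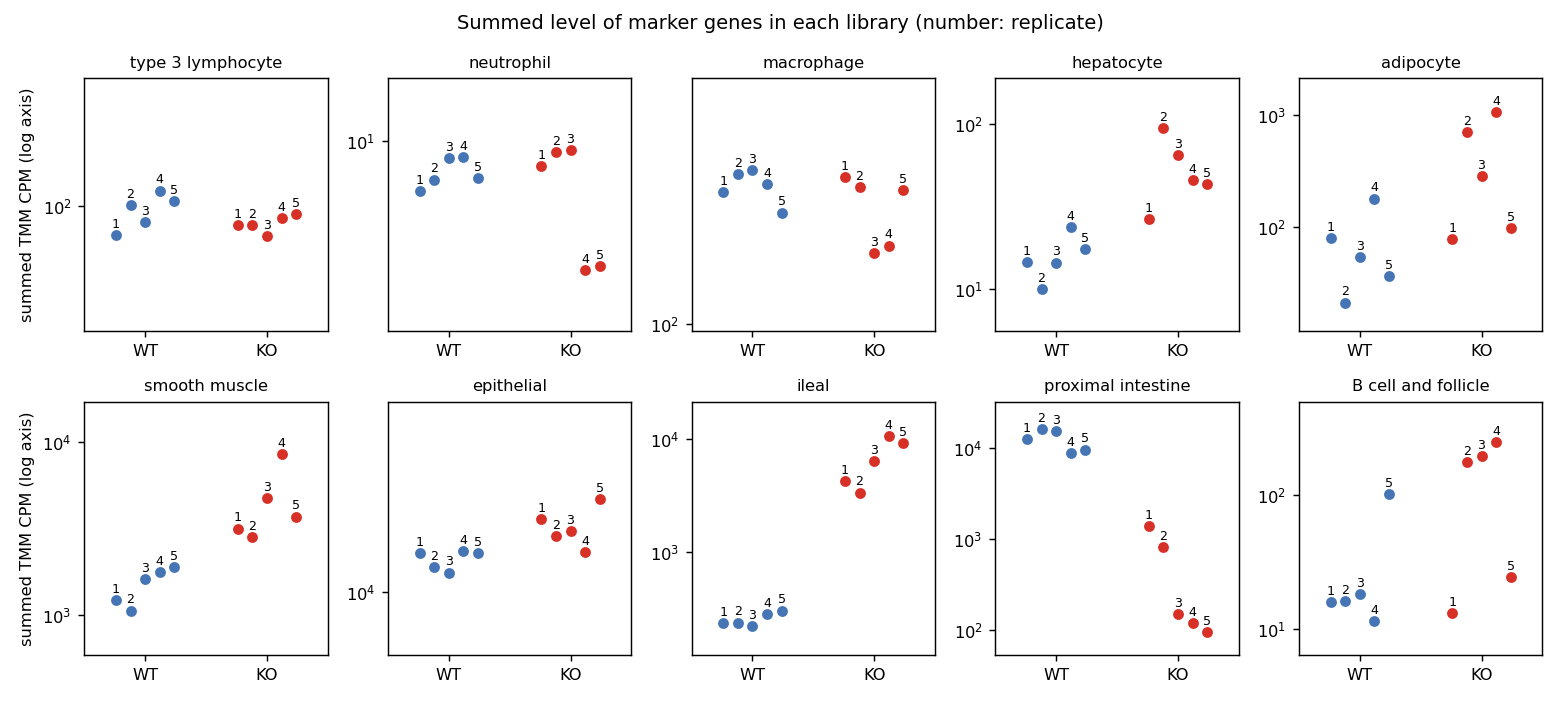
Summed CPM of each list of marker genes by library on log axes, with WT in blue, KO in red and replicate numbers beside the points. The ileal, smooth muscle and hepatocyte sums of all KO libraries are above those of all WT libraries and the proximal sums are below them, while type 3 lymphocyte, neutrophil and macrophage sums overlap.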

How the data were processed

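Total RNA of 5 WT and 5 KO mice was used for RNA-seq (SMARTer mRNA-Seq kit, NovaSeq), 1 library per mouse. For each library the authors deposited unnormalized counts on Ensembl gene IDs. Per the submitters' processing notes, FastQC 0.11.9, Trimmomatic, HISAT2 2.0.4, SAMtools 1.3.1 and DESeq2 1.14.1 were used with the builds GRCm38 and mm10, and the sources used here do not give the read counter, annotation or strand setting. GENCODE M21 gave symbols for 34490 of 35275 IDs. The total per library was between 16729787 and 20819678 counts, and intervals and limits cover counting error only.

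Groups were taken from the genotype label and compared with edgeR 4.0.16 (quasi-likelihood test, TMM, filterByExpr with minimum count 10 and minimum total 15) in R 4.3.3, with Benjamini-Hochberg adjustment over 15610 genes and a threshold of 0.05. A gene that passed is one under that threshold. CPM are counts scaled to the TMM-normalized library size. Log2 CPM has a prior count of 2. List genes below the filter were compared by an exact 2-sided permutation test, adjusted over the 20 of them. Levels per length used the first GENCODE transcript of each gene. The 9 genes and the lists were chosen with earlier results of these data known, so no p is given for the 9. From each list, up to 4 passing genes with the lowest adjusted p and the most abundant gene were named. Il17rc, Reg3b, Il6, Il17f, Il17c, Il12b, Il23a, Il23r, S100a8, S100a9, Csf3r, Cxcr2, Saa4, Retnlb, Nox1, Crp, Cxcl2, Hp, Tat, Cyp2e1, Serpina1a, Alb, Fgg, Ly6g and Elane were chosen after their values were seen. Ahr and Nox4 were added in the same way. Likeness of profiles was the root mean square difference of centred log2 CPM. Promoters were from RefSeq (GRCm38.p6). Alternatives were RLE size factors, library size only, scaling to epithelial markers, DESeq2 1.42.0, other filters and dispersion, the replicate number as a block and leaving out each library. The fit was tested on simulated data. Trdc and Trgc1 had no matching ID. The values of 1 list gene are not reported here, and it is counted but not drawn. All libraries of a group differed beyond sampling noise. Whether a mouse's litter, cage or sex differed between groups is not given, so p-values measure the spread between these mice.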

Additional observations from a re-analysis of the deposited data

Results flagged for a closer look

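In 7 of 100 groups of 5 libraries that were examined, 1 library stood apart by more than Dixon's 95% limit (0.710 of the group's range). Chance gives about 1 in 20 for normally distributed values, but the limit was applied to CPM without a log. A group with counts in only 1 library always exceeds it, so the 7 cannot be judged against that rate. Duoxa2 was at 23.4 CPM in WT replicate 1, against 0.702 to 6.43 CPM in the other WT libraries. This library also had the most Duox2 of the WT group. Nos2 was at 16.0 CPM in WT replicate 5, against 1.57 to 5.50 CPM in the others. The sum of the B cell and follicle markers was highest in the same library, at 102.7 CPM against 11.6 to 18.3 CPM. Slc39a14 was at 160.1 CPM in KO replicate 1, against 78.5 to 93.8 CPM in the other KO libraries, and this library had the least Saa1 and Saa3 and the highest proximal marker sum of the KO group (1398 CPM against 94.96 to 808.3 CPM). Of the genes with few counts, Il17a was at 0.156 CPM in WT replicate 1 and 0 in the others (3 counts), Saa2 at 0.1099 CPM in WT replicate 4 and 0 in the others (2 counts), and Saa2 at 0.262 CPM in KO replicate 5 against 0 to 0.0540 CPM (5 counts).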

How the results depend on the processing

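None of the log2 fold changes of the 6 genes of the 9 in the fit and of the 22 list genes that passed reversed under the alternatives run (other named genes were not run), while the balance of all genes that passed did with scaling to epithelial markers, from 2491 higher and 2169 lower to 849 higher and 5317 lower. The genes that passed numbered 4660, 6166 with that scaling, 5197 with library size only, 5679 with DESeq2, 3848 with the replicate number as a block and 3207 to 5507 when 1 library was left out. Of the 9 genes, 5 passed; with the replicate block 3 did (Saa1, Saa3 and Nos2), with Duox2 at 3.67 and Duoxa2 at 4.11 losing their call, and 4 to 5 passed when 1 library was left out. The replicate numbers are not known to pair the mice. Same-numbered libraries had correlations of -0.167 to 0.177 in their deviations, and 1 of 5 numbers matched best with itself. These few values cannot decide whether the numbers pair mice. Of the 22 list genes that passed, Duoxa1, Gpx2, C3 and Lbp did not with the block. List genes below the filter with an unadjusted exact p under 0.05 numbered 4, and 4 to 8 when 1 library was left out (8 without KO replicate 1). Saa2, Il17a and Il22 did not pass without the filter or with DESeq2. These 3 genes had few counts at this depth, and the part of shared sequence in the counts of Saa2 and Il22 was not tested. Why a call changed was not tested. The gut segment and the genotype cannot be told apart.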
